A study of Mus musculus with 28 samples.

Results

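The 44 genes described here encode the DNA replication machinery of the mouse. They were chosen by name from a list of replication proteins and not by a threshold on their values, though with earlier results of these data known, and fall into 10 role groups, from the origin recognition complex to the enzymes of nucleotide supply. All 44 were found among the 37974 genes of the single-cell table. By gene identifier, 35 were found among the 36358 genes of the tissue table. Mcm4, Mcm5, Gins3, Gins4, Cdt1, Orc6, Pola2, Pole2 and Rrm1 were not analysed in tissue.

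The study asked how aging alters the neural stem/progenitor cells of the SEZ/SVZ, the germinal zone in the wall of the lateral ventricle. RNA was sequenced from microdissected SEZ/SVZ tissue of C57BL/6 mice, in 3 samples of 3 weeks and 3 of 18 months. It was also sequenced from 22 single cells of the same strain, aged 1 month or 24 months, prepared with Smart-seq2, which amplifies full-length cDNA from 1 cell. No agent or transgene was named for any group. The cells came from a size and complexity gate in flow cytometry, were picked by hand, and were assigned by the authors to 3 subpopulations, Prom1+ (3 cells at each age), Dlx2+/Dcx+ (5 at 1 month and 4 at 24 months) and Gfap+ (2 at 1 month and 5 at 24 months). Because that assignment used the transcriptomes themselves, levels between subpopulations are described without a test.

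Replication starts when the origin recognition complex, with Cdc6 and Cdt1, loads rings of the Mcm helicase onto DNA before S phase. Cdc45, the GINS complex and Mcm10 then turn the rings into active helicases, and polymerases, the sliding clamp Pcna and RPA copy the separated strands. Many of these genes are induced by E2F factors as cells leave quiescence, so their transcripts are widely used to mark cycling stem and progenitor cells in the adult brain.

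Values were FPKM, fragments per kilobase of transcript and per fixed number of mapped fragments. They were compared as log2(FPKM + 1), a scale that understates changes of low genes. The estimated depth of the tissue samples was 18360000 to 22260000 fragments, and 11733 to 12127 genes reached 1 FPKM in each. The cells had 4398 to 6626 genes above 1 FPKM, the lowest in the Gfap+ cell 1 of 1 month. Genes that every cell uses were at times at 0 in the cells, so a value of 0 is given as listed and not as absence. The cells were picked and named by Prom1, Gfap, Dlx2 and Dcx, so the levels of these genes are a description and no check of the labels. Dcx reached 15.8 to 267 FPKM in the Dlx2+/Dcx+ cells, and Prom1 1.49 to 56.6 FPKM in the Prom1+ cells. The Gfap+ cells held Gfap at 48.7 to 194 FPKM, but also Mbp at 6346 to 19572 FPKM and Mog at 792 to 3251 FPKM. Of the other astrocyte markers, S100b (median 604 FPKM) and Aldoc (median 373 FPKM) were high in most of the 7 cells, Gja1 was above 1 FPKM in 2, and Aqp4 and Aldh1l1 were in none. Since they held oligodendrocyte markers at these levels, they are called here by their label alone.

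In tissue, 3 genes of the helicase ring (Mcm2, Mcm3 and Mcm6), 3 of its activators (Cdc45, Gins1 and Mcm10) and Rrm2, of deoxynucleotide synthesis, were lower at 18 months, while the tested genes of the origin recognition complex and of RPA had medians of 0.08 and 0.17 on the log2 scale. Of the 35 genes, 32 reached 1 FPKM in at least 3 of the 6 samples and were tested with limma among 12287 genes. Mcm2, Mcm10 and Rrm2 fell by more than 1 on the log2 scale at p under 0.05 (3 of 32, against 2.07% of all genes tested), and no gene of the machinery rose by these limits (background 1.83%). At an adjusted p under 0.05, 7 of 32 were lower (background 2.42%) and none was higher (background 2.51%, with 1 at an unadjusted p under 0.05, Orc5). All samples of 18 months lay below all of 3 weeks for 14 of the 32 (background 12.2%), and above them for 2 (background 20.9%). The median log2 fold change was −0.28, with 24 of 32 below 0, and it was 0.09 over all genes tested. A gene that reached 1 FPKM at 3 weeks alone had to differ to be tested, which was the case for Mcm10, so these counts describe the genes tested and are not evidence for the machinery as a whole.

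The calls moved with the settings. The fold limit was passed by 5 genes after scaling to TPM or quantile normalization (Mcm3 and Cdc45 added) and by 7 with a pseudocount of 0.1 (also Pole and Tyms). Of all 12287 genes tested, 311, 290 and 349 fell past it with TPM, quantile normalization and that pseudocount, against 254 in the fit reported. The adjusted calls depended on single samples, among all genes as in the machinery. Of the machinery, 0 genes passed when any single sample of 3 weeks was left out. Without sample 1, 2 or 3 of 18 months, 6, 1 and 3 passed. Of all genes tested, 297 were lower at this limit in the fit reported. Without sample 1, 2 or 3 of 3 weeks 65, 43 and 54 were, and without those of 18 months 304, 108 and 139. The study gives its tissue n per age group, but the labels tie no sample to an animal, so p-values measure the spread between samples, part of which may be technical. In whole tissue, fewer cells of a type and less RNA per cell cannot be told apart.

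**Figure D1:**
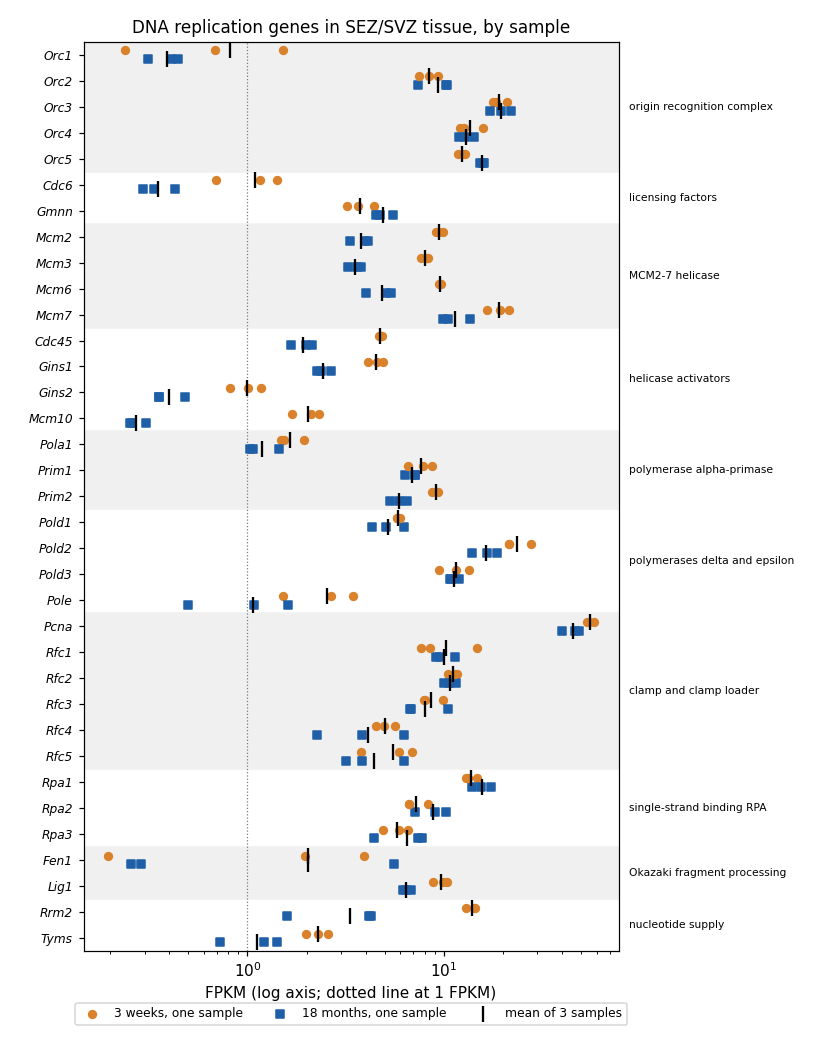
FPKM of the 35 replication genes in each tissue sample on a log axis, ordered by role, with circles for 3 weeks, squares for 18 months and a bar for the mean of 3 samples. The ages are apart for Mcm2, Mcm3, Mcm6, Cdc45, Mcm10 and Rrm2, among others, and apart in the reverse order for Orc5 and Gmnn. They are mixed for most of the origin recognition complex, the clamp loader and RPA.

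Mcm2 is a subunit of the helicase ring (ENSMUSG00000002870, GRCm38 chr6:88883474-88898780, minus strand). It measured 9.12, 9.87 and 9.43 FPKM at 3 weeks and 4.12, 3.96 and 3.31 FPKM at 18 months. The ages did not overlap, and Mcm2 fell by 1.13 on the log2(FPKM + 1) scale (SE 0.12, limma adjusted p = 0.0111, n = 3 per age). Mcm3 fell by 1.00 (SE 0.11, limma adjusted p = 0.0131) and Mcm6 by 0.87 (SE 0.13, limma adjusted p = 0.0268). Mcm7, the least changed subunit measured, had 21.4, 16.6 and 19.2 FPKM at 3 weeks and 9.86, 13.6 and 10.6 FPKM at 18 months. Its samples were apart as well, but its difference of −0.71 missed the adjusted limit (limma adjusted p = 0.0741).

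The factors that activate the helicase showed the same order of samples. Mcm10, which promotes activation of the loaded helicase (ENSMUSG00000026669, GRCm38 chr2:4989714-5012791, minus strand), had 1.68, 2.33 and 2.10 FPKM at 3 weeks against 0.258, 0.254 and 0.303 FPKM at 18 months. The older samples thus averaged 0.271 ± 0.0275 FPKM (SD, n = 3) against 2.04 ± 0.327, a 7.50-fold ratio of means, and Mcm10 fell by 1.25 (SE 0.12, limma adjusted p = 0.00686). Cdc45, a component of the active helicase, fell by 0.98 (SE 0.12, limma adjusted p = 0.0143). Gins1, a GINS subunit, went from 4.89, 4.54 and 4.13 FPKM to 2.37, 2.68 and 2.26 FPKM and fell by 0.68 (limma adjusted p = 0.0386). Gins2 was under the filter, at 0.819 to 1.17 FPKM at 3 weeks and 0.354 to 0.479 FPKM at 18 months, and overlaps exons of Gse1 on the other strand over 2758 bases. The median of the tested genes was −0.93 for the helicase ring (4 genes) and −0.98 for its activators (3 genes).

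Rrm2, the regulated subunit of ribonucleotide reductase (ENSMUSG00000020649, GRCm38 chr12:24708241-24714146, plus strand), had the greatest fall of the 32 on the log2(FPKM + 1) scale. With a pseudocount of 0.1 Mcm10 fell further, at −2.51 against −2.15 for Rrm2. Rrm2 measured 14.4, 14.2 and 13.0 FPKM at 3 weeks and 1.58, 4.26 and 4.17 FPKM at 18 months. Every older sample was below every younger one, the older ones spread more, and Rrm2 fell by 1.85 (SE 0.30, limma adjusted p = 0.0327). Tyms, which makes thymidylate, had 2.28, 2.58 and 1.99 FPKM against 0.722, 1.42 and 1.22 FPKM. Its ages did not overlap, at a difference of −0.64 (limma adjusted p = 0.0909).

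None of the 7 tested polymerase genes passed the adjusted limit. Prim2, the large primase subunit, had 9.37, 9.29 and 8.72 FPKM at 3 weeks and 6.47, 5.88 and 5.35 FPKM at 18 months, a difference of −0.56 (limma adjusted p = 0.0597). Prim1, the catalytic primase subunit, had 7.79, 8.68 and 6.56 FPKM against 6.38, 7.11 and 7.13 FPKM. The samples of Prim2 were apart and those of Prim1 mixed. Pole, the catalytic subunit of polymerase epsilon, had 3.45, 2.67 and 1.52 FPKM against 1.08, 0.499 and 1.61 FPKM, overlapping ages and a difference of −0.78 (SE 0.29, limma adjusted p = 0.181). Pold3, an accessory subunit of polymerase delta, had 13.5, 9.46 and 11.5 FPKM against 10.7, 10.9 and 12.02 FPKM, and its ages were mixed. Of the others, Pola1 and Pold2 did not overlap between ages (−0.28 and −0.50), and Pold1 did (−0.15).

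Pcna, the sliding clamp, was the most abundant of the 35 at 55.6 ± 2.52 FPKM (SD, n = 3) at 3 weeks and 45.3 ± 4.46 FPKM at 18 months. Its samples did not overlap, but the difference of −0.29 missed the adjusted limit (limma adjusted p = 0.182). The 5 subunits of the clamp loader overlapped between ages. They ran from Rfc4, with 4.53, 5.63 and 4.98 FPKM at 3 weeks and 2.26, 6.26 and 3.81 FPKM at 18 months, to Rfc1, with 14.8, 8.50 and 7.64 FPKM and 9.11, 9.58 and 11.4 FPKM. Lig1, the ligase that joins Okazaki fragments, had 9.87, 8.86 and 10.4 FPKM against 6.39, 6.79 and 6.17 FPKM, apart but at a limma adjusted p = 0.0661. Fen1, the flap nuclease, was scattered at both ages, with 3.93, 1.96 and 0.195 FPKM against 0.287, 5.58 and 0.255 FPKM. It shares 1909 exon bases with Gm10143 on the other strand, and since the use of strand in counting is not given in the sources used here, its reads cannot be told apart from those of that gene. The same limit holds for other members, among them Gins2 (above), Orc2 with Nif3l1 (1150 exon bases), Rfc2 with Lat2 (952) and Rfc5 with Wsb2 (499). It also holds for Cdc45, lower at the adjusted limit, with Ufd1 (209). Pcna and Tyms have annotated pseudogenes (Pcna-ps1, Pcna-ps2 and Tyms-ps), so their values may include shared reads.

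No tested gene for marking origins, restricting their use or protecting single strands passed a limit in either direction. Orc5 had 11.8, 12.8 and 12.5 FPKM at 3 weeks and 15.3, 15.9 and 16.0 FPKM at 18 months, the reverse order (difference 0.32, SE 0.10, limma adjusted p = 0.127). Orc4 had 15.9, 12.6 and 12.1 FPKM against 14.3, 12.8 and 12.003 FPKM and was the lowest of the 4 tested subunits at −0.04. Orc1, the cycle-regulated subunit, stayed under the filter at 0.237 to 1.52 FPKM. Gmnn, the geminin that blocks reloading of the helicase, had 4.41, 3.64 and 3.21 FPKM against 4.50, 5.54 and 4.74 FPKM, again higher in every older sample. The loader Cdc6, under the filter, went the other way, at 1.15, 1.42 and 0.689 FPKM against 0.334, 0.430 and 0.293 FPKM. The 3 RPA subunits, which coat single strands, overlapped between ages. Among them Rpa2 had 8.36, 6.64 and 6.68 FPKM against 7.16, 10.2 and 9.07 FPKM, and Rpa3 4.88, 6.57 and 5.89 FPKM against 4.43, 7.70 and 7.39 FPKM.

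**Figure D2:**
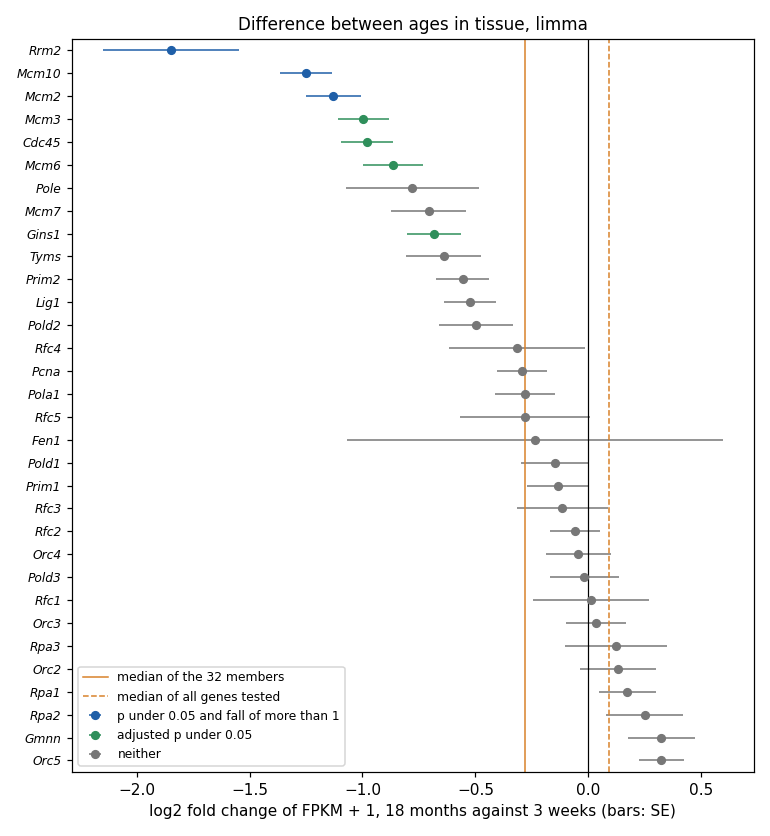
Difference between ages on the log2(FPKM + 1) scale for the 32 genes tested, with standard errors from limma, ordered from Rrm2 at −1.85 to Orc5 at 0.32. The solid line marks their median, −0.28, and the dashed line that of all genes tested, 0.09.

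Other cycle genes were lower in the same samples. Of 46 further S-phase genes, 30 were tested with a median of −0.51, and Ccna2, Uhrf1, Chaf1b and Tk1 fell past the fold limit. Cyclin A2 (Ccna2), for example, had 13.9, 13.5 and 12.9 FPKM against 3.88, 3.04 and 4.17 FPKM. Of 26 genes of G2 phase and mitosis, 19 were tested with a median of −1.20, and 16 fell past the limit, led by Ube2c (25.3, 29.1 and 31.2 FPKM against 5.20, 5.11 and 5.09 FPKM). The share of all genes tested that fell past this limit was 2.07%. As with Mcm10, some genes of both lists reached 1 FPKM at 3 weeks alone and had to differ to be tested, E2f8, Dtl and Chtf18 of the first and Cenpf and Ttk of the second, named after their values were seen. The summed FPKM of the replication genes themselves was 320 to 345 at 3 weeks and 245 to 285 at 18 months. Summed markers of several cell types differed too. The 10 oligodendrocyte markers (9 measured, 7 lower at the adjusted limit) summed to 19957 to 22165 FPKM at 3 weeks and 3787 to 4492 FPKM at 18 months, with Olig2 listed at 0 in all older samples. The 10 neuroblast markers (8 measured, 4 lower) summed to 355 to 401 FPKM and 220 to 227 FPKM, and the 9 markers of active stem cells (2 lower) to 309 to 371 FPKM and 113 to 295 FPKM. The 4 markers of oligodendrocyte precursors (3 measured, 1 lower) summed to 60.9 to 69.2 FPKM and 17.6 to 22.2 FPKM. The 5 endothelial markers (4 measured, none called) were also lower by sum, 42.9 to 57.1 FPKM against 29.9 to 34.8 FPKM. The 6 neuron markers (5 measured, none at the adjusted limit) went the other way, from 991 to 1602 FPKM to 1842 to 2368 FPKM, and the sums of the microglia, astrocyte and ependymal markers overlapped between ages. The part of these cell types in the replication values was not tested.

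Promoter sequences were read from RefSeq (GRCm38.p6) as the 250 bases before each gene's start, for the 36 members that matched. Letters of 3 motifs were searched on both strands. The E2F letters TTTCGCGC, TTTGGCGC or TTTCCCGC stood in 9 of 36 members (25%) and in 1.78% of 27025 genes with a window. The CCAAT box, CCAAT, stood in 23 of 36 (63.9%) and 37.5% of genes, and the CHR letters TTTGAA in 5 of 36 (13.9%) and 18.3% of genes. The E2F letters were in Cdc6, Gins3, Mcm5, Mcm6, Mcm7, Orc1, Orc3, Pola1 and Rfc3. In tissue, the median difference was −0.28 in the 5 tested genes that had them and −0.26 in the 22 without, and 3 and 9 of these were lower without overlap. For the CCAAT box the medians were −0.29 in 18 genes with it and −0.24 in 9 without, with 10 and 2 lower without overlap. For the CHR letters they were −0.74 in 4 genes with them and −0.15 in 23 without, with 3 and 9 lower without overlap. None of these splits was tested. Among all 12287 genes tested in tissue, 12.2% were lower without overlap. The windows of the 3 genes that passed the fold limit are shown with those of Mcm6, which had the most E2F matches, and Rfc1, whose difference was nearest to 0. Capitals mark CCAAT or its complement ATTGG, and in Mcm6 also the E2F letters.
Mcm2 (chr6:88898781-88899030, minus strand): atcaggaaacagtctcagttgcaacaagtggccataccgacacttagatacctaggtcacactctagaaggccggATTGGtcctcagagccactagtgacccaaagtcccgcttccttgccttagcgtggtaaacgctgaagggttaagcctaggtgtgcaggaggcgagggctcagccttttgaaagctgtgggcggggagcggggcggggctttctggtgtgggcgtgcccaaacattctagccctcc
Mcm10 (chr2:5012792-5013041, minus strand): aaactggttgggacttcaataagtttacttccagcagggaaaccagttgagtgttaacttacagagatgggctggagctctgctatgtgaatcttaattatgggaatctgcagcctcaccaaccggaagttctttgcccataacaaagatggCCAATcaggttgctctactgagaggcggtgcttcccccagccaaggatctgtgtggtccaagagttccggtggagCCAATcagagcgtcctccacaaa
Rrm2 (chr12:24708004-24708253, plus strand): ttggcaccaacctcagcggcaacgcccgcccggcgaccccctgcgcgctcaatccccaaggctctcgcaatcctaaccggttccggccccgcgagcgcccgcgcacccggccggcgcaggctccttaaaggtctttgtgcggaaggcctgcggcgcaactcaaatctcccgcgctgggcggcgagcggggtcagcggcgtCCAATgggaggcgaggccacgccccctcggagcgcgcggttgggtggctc
Mcm6 (chr1:128359706-128359955, minus strand): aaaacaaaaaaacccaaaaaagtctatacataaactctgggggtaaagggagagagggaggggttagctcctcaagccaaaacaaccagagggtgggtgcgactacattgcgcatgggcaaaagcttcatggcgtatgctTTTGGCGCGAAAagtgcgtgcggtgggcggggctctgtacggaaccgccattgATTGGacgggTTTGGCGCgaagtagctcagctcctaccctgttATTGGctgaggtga
Rfc1 (chr5:65335640-65335889, minus strand): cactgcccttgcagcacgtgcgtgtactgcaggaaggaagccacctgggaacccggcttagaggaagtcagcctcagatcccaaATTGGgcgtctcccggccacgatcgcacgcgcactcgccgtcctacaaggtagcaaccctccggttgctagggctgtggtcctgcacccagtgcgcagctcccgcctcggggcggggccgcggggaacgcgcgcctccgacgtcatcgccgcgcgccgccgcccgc
None of the 3 genes past the limit had the E2F letters in this window, while Mcm6 had 3 matches, of which the upstream pair overlap on opposite strands. Each of the 5 windows had a CCAAT box, Rfc1 included. A match is a description of letters and not of a bound site, and a lack of these letters does not show that a site is absent.

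In single cells, the machinery was present in Prom1+ and Dlx2+/Dcx+ cells and low in Gfap+ cells. Prom1+ cells had 30 to 39 of the 44 genes above 1 FPKM, Dlx2+/Dcx+ cells 23 to 37 and Gfap+ cells 11 to 24. The share of all expressed genes above 1 FPKM was 49.8 to 55.1%, 42.8 to 53.4% and 37.0 to 50.7% in these cells. With both ages weighted equally, 39 of 44 were lower in Gfap+ than in Prom1+ cells by more than 1 on the log2 scale (background 33%) and 2 were higher, Orc4 and Prim2 (background 22.1%). Against Dlx2+/Dcx+ cells, 32 were lower in Gfap+ cells (background 27.6%) and the same pair, Orc4 and Prim2, was higher (background 24.7%). Dlx2+/Dcx+ cells had 15 genes lower (background 24.4%) and 5 higher (background 13.5%) than Prom1+ cells. The 10 oligodendrocyte markers summed to 39742 to 89626 FPKM in Gfap+ cells and to 21.1 to 353 FPKM in the other cells, and their part in these values was not tested. These shares describe few cells, and each subpopulation at each age counts as 1 sample, since the labels tie no cell to an animal.

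**Figure D3:**
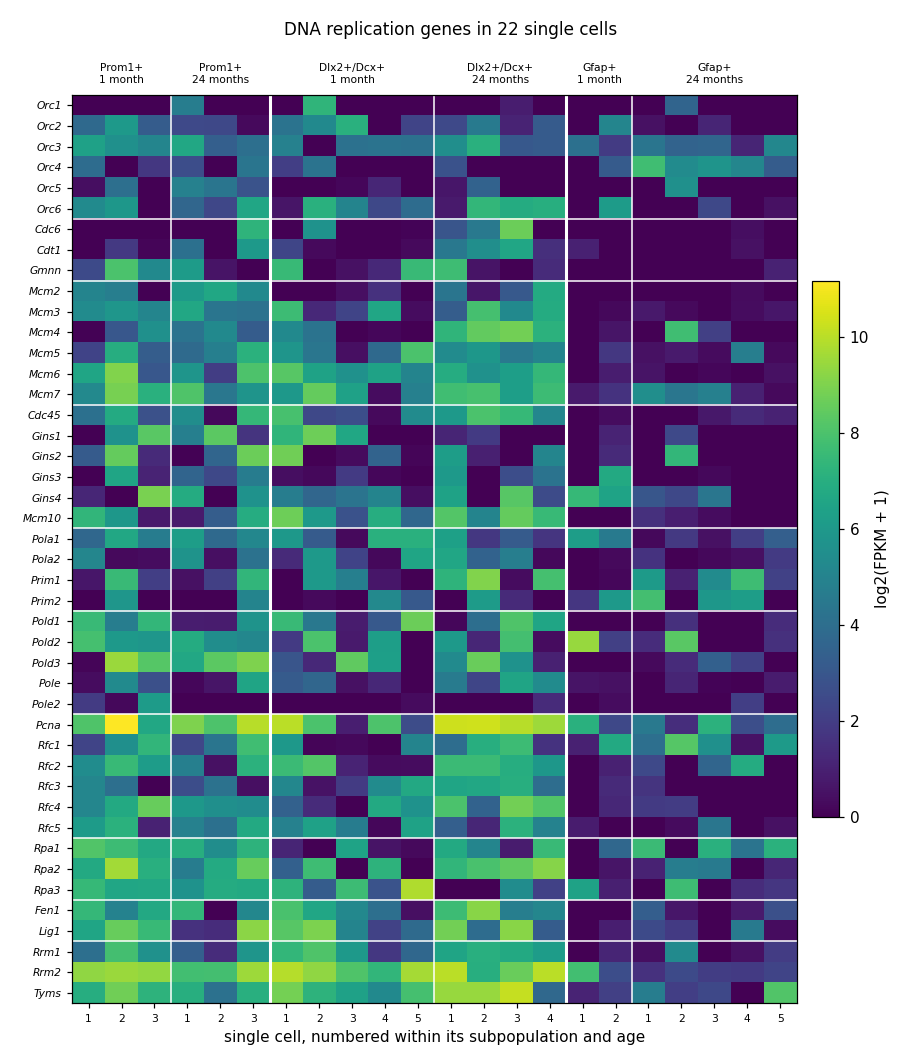
log2(FPKM + 1) of the 44 replication genes (rows, by role) in the 22 single cells (columns, by subpopulation and age). Gfap+ cells are dark in most rows, and Rrm2 and Pcna are bright in most Prom1+ and Dlx2+/Dcx+ cells. Most of the helicase rows are brighter in Dlx2+/Dcx+ cells of 24 months than of 1 month, though Mcm6 differs little.

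By mean log2(FPKM + 1) with the ages weighted equally, Rrm2 was the highest of the 44 in Prom1+ cells (8.88, next to Pcna at 8.83) and in Dlx2+/Dcx+ cells (8.89, next to Pcna at 7.99). It measured 219 to 744 FPKM with a median of 641 in the 6 Prom1+ cells and 126 to 1029 FPKM with a median of 640 in the 9 Dlx2+/Dcx+ cells, where the median of Pcna was higher at 748 FPKM. In Gfap+ cells that mean put Gins4 at 4.47, Rfc1 at 4.41 and Pcna at 4.35, with the 2 young cells weighted like the 5 older ones, and the median over cells was 6.88 FPKM for Gins4 against 47.1 FPKM for Rfc1. Rrm2 there measured 2.01 to 217 FPKM. By the same measure, the lowest were those of Orc1 in Prom1+ cells, listed at 0 in 5 of 6, of Pole2 in Dlx2+/Dcx+ cells, above 1 FPKM in 1 of 9, and of Mcm2 in Gfap+ cells, above 0 in 1 of 7 at 0.249 FPKM. Each of these genes was high in some other cell of the set, up to 159 FPKM for Orc1, 68.2 FPKM for Pole2 and 111 FPKM for Mcm2.

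Between ages, Dlx2+/Dcx+ cells had more of the machinery at 24 months. The 5 cells of 1 month had 35, 32, 24, 27 and 23 of 44 genes above 1 FPKM, and the 4 cells of 24 months had 37, 35, 35 and 36. Of all expressed genes, 44.9 to 53.4% were above 1 FPKM in the cells of 1 month and 42.8 to 44.7% in those of 24 months. The mean log2(FPKM + 1) over the 44 was 2.79 to 4.70 in cells of 1 month and 4.27 to 5.21 in cells of 24 months, ranges that overlap. The difference of means was 1.33, with 24 genes higher by more than 1 (background 16.6%) and 4 lower, Rpa3, Gins1, Pola1 and Orc1 (background 27.1%). Over all expressed genes the mean went the other way, from 2.41 to 2.15. The clamp and clamp loader led, at 3.94 and 6.58 by mean, followed by the helicase ring at 3.68 and 6.11.

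Mcm4, a helicase subunit (ENSMUSG00000022673, placed by GENCODE on GRCm38 chr16:15623897-15637400, minus strand), was the sole member whose ages did not overlap in these cells. It measured 38.9, 18.0, 0, 0.149 and 0 FPKM at 1 month and 156, 357, 441 and 142 FPKM at 24 months. Every older cell was above every younger one, a difference of 5.98 (background 0.644% of expressed genes without overlap and higher, 1.08% lower, with 0 members). Pcna, given here by its size and named after its values were seen, had 1033, 254, 0.914, 266 and 5.04 FPKM against 1284, 1322, 992 and 748 FPKM. Its younger cells were split, with cell 1 within the older range. The 4 genes that were lower were uneven, as in Rpa3, the smallest RPA subunit, with 149, 8.58, 200, 6.15 and 924 FPKM against 0, 0, 41.6 and 3.45 FPKM, also named after its values were seen.

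Between ages, the G2/M genes of the same cells differed in the opposite direction to the replication genes. All 26 were lower at 24 months by mean, 25 of them by more than 1, with a median difference of −4.29, against 1.23 for the 44 replication genes. The 46 other S-phase genes were in between, at a median of 0.06 with 16 higher and 11 lower by more than 1. Mitotic genes were at 6.37 to 8.41 by cell mean at 1 month and 1.13 to 5.33 at 24 months. Among the 4 cells of 24 months, the cell means were 5.33, 1.59, 4.94 and 1.13 for the G2/M genes and 5.21, 4.74, 5.18 and 4.27 for the replication genes, so both were higher in cells 1 and 3. Among the 5 cells of 1 month they were 6.37, 6.46, 7.94, 7.74 and 8.41 for the G2/M genes and 4.70, 4.20, 2.79, 2.88 and 3.06 for the replication genes, so cells 1 and 2 had the lower G2/M and the higher replication level. Genes above 1 FPKM numbered 5278 to 6286 in cells of 1 month and 5081 to 5304 in cells of 24 months. The 10 neuroblast markers were at 6.55 to 8.32 by cell mean at 1 month and 6.07 to 7.58 at 24 months, which overlap. The 9 markers of active stem cells were at 2.32 to 3.35 and at 1.10 to 1.87, and the 6 astrocyte markers at 0.74 to 1.43 and at 0 to 0.31, both without overlap. The mean over all expressed genes was also without overlap, at 2.30 to 2.56 and at 2.11 to 2.20. The part of these lists, of the G2/M level or of the number of genes detected in the age difference was not tested.

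**Figure D4:**
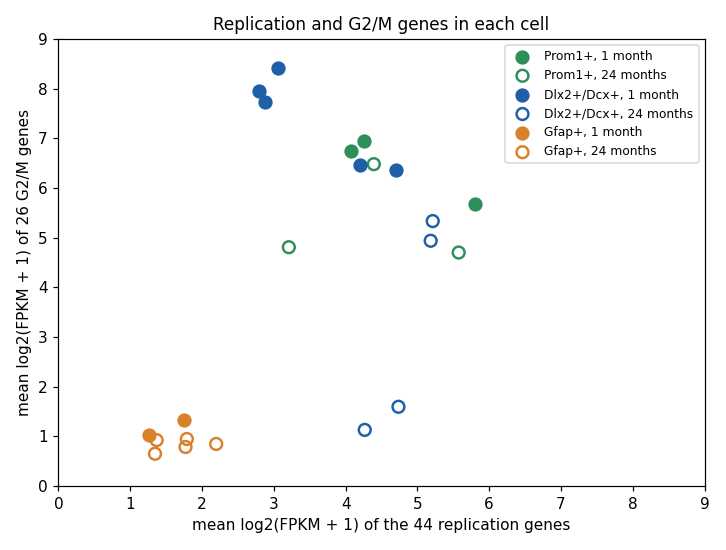
Mean log2(FPKM + 1) of the 44 replication genes against that of the 26 G2/M genes, 1 point per cell, with colours for subpopulations, filled points for 1 month and open points for 24 months. Dlx2+/Dcx+ cells of 24 months lie at 4.27 or more on the replication axis and at 5.33 or less on the G2/M axis, and Gfap+ cells lie low on both.

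In Prom1+ cells the shares of members lower and higher were near those of all expressed genes. Their mean over the 44 was 4.71 at 1 month (4.07 to 5.81) and 4.39 at 24 months (3.21 to 5.57), with 35 genes above 1 FPKM on average at both ages. By more than 1, 11 genes were lower (background 24%) and 10 higher (background 22%). The mean difference of −0.32 was −0.91 to 0.27 when single cells were left out. The count of lower genes rested on single cells, being 18 without cell 1 of 1 month, 22 without cell 3 of 1 month and 21 without cell 3 of 24 months. The share of all expressed genes was not computed with these cells left out, so these counts have no background beside them. Without overlap, 2 were lower (background 4.1%) and 1 higher (background 3.9%). Mcm2 was the higher one, at 31.5, 26.3 and 0 FPKM against 66.1, 99.0 and 38.1 FPKM. Orc2, an origin recognition subunit, was lower, at 13.2, 65.6 and 8.38 FPKM against 4.57, 4.37 and 0.220 FPKM. Pole2, an accessory subunit of polymerase epsilon, had 2.89, 0.171 and 68.2 FPKM and was listed at 0 in all 3 older cells. Okazaki fragment processing (Fen1 and Lig1) had the greatest drop of a role group by mean, 6.96 against 4.13, and its older cells spread widely.

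In Gfap+ cells the machinery stayed low, at 1.51 by mean at 1 month (1.27 and 1.74) and 1.69 at 24 months (1.34 to 2.20). Over all expressed genes the mean was 2.17 at 1 month and 2.42 at 24 months. Of the 10 roles, RPA alone passed 3 by mean (1.97 at 1 month and 3.24 at 24 months). By more than 1, 8 genes were lower (background 19.6%) and 13 higher (background 29.6%). Without overlap, 3 were lower (background 3.1%) and 2 higher (background 2.8%). Rrm2 was lower, at 217 and 5.27 FPKM against 2.01, 4.70, 3.06, 2.77 and 3.90 FPKM. Gins4, a GINS subunit, was lower at 178 and 88.4 FPKM against 6.88, 4.30, 19.6, 0 and 0 FPKM. Pola1, the catalytic subunit of polymerase alpha, was the third, at 73.9 and 22.2 FPKM against 0.195, 2.57, 0.418, 3.14 and 9.31 FPKM. The higher pair was Prim1, at 0 and 0.156 FPKM against 67.1, 1.01, 40.9, 207 and 3.41 FPKM, and Orc4, at 0 and 8.35 FPKM against 213, 40.4, 54.1, 33.8 and 8.42 FPKM. With 2 young cells, 1 of them with the fewest genes above 1 FPKM of the set, each of these comparisons rests on few values.

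**Figure D5:**
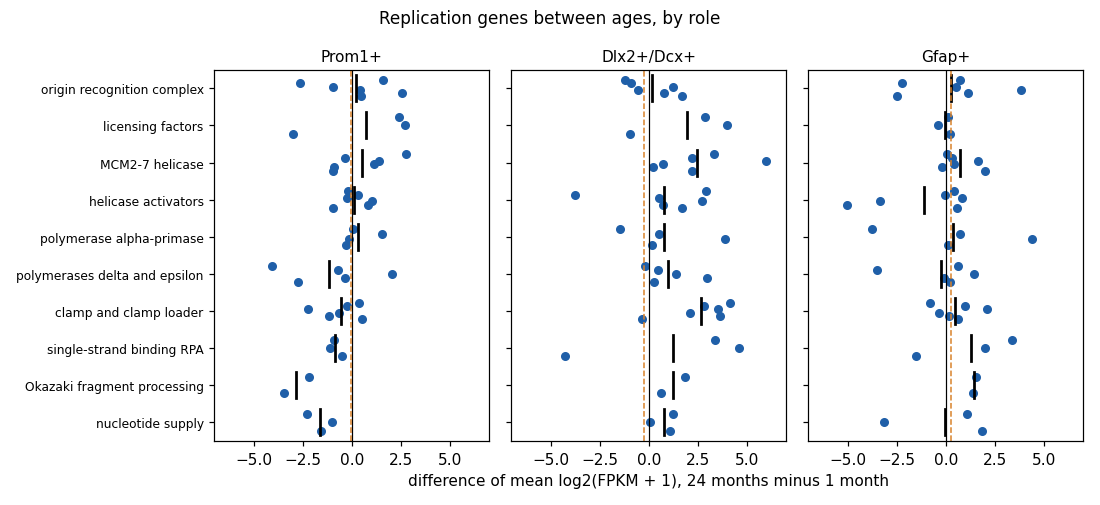
Difference of mean log2(FPKM + 1) between 24 months and 1 month for each of the 44 genes (points) by role, with the role mean (black bar) and the mean over all expressed genes (dashed line), in the 3 subpopulations. In Dlx2+/Dcx+ cells all 10 role means are above 0, while in Prom1+ cells the last 5 roles are below it.

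For the 7 genes lower in tissue at the adjusted limit, the differences in cells are given side by side, at ages that differ (3 weeks and 18 months in tissue, 1 month and 24 months in cells). In Dlx2+/Dcx+ cells the difference was 3.33 for Mcm2, 2.19 for Mcm3, 0.19 for Mcm6, 2.92 for Cdc45, 1.68 for Mcm10 and 0.04 for Rrm2, while Gins1 was lower at −3.75. In Prom1+ cells it was 2.74 for Mcm2 and 0.29 for Gins1, and −0.37 for Mcm3, −0.91 for Mcm6, −0.19 for Cdc45, −0.99 for Mcm10 and −0.99 for Rrm2. In Gfap+ cells it was 0.06 for Mcm2, 0.31 for Mcm3, −0.19 for Mcm6, 0.44 for Cdc45, −0.05 for Gins1 and 0.58 for Mcm10, levels near or under 1 FPKM in most cells, and −3.14 for Rrm2, whose ages did not overlap. No test was made of these differences between experiments, which have different units of sampling.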

How the data were processed

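RNA was measured in 6 tissue samples and 22 single cells. The authors deposited FPKM values for both, as 2 tables with 1 column per sample and no read counts. Read totals that the study lists for the cells were not used here. The submitters' processing notes name HISAT2, StringTie, featureCounts and GRCm38 for cells and tissue, while versions and the use of strand are not given in the sources used here. No value column lacked a sample. Depth of tissue samples was estimated from steps of the low FPKM values (54.9 to 56.5% of values within 0.02 of a whole number), which was too few for recovering reads.

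Tissue values were tested as log2(FPKM + 1) with limma 3.58.1 (R 4.3.3, trended variance, 2-sided) over genes with at least 1 FPKM in 3 of 6 samples, with Benjamini-Hochberg adjustment over all genes tested and the limits of p under 0.05 and a log2 fold change above 1 in size. The test was checked on simulated data. Two-sided exact permutation of 3 against 3 samples cannot go below p = 0.10, so it was not used. Cells were described without tests, over genes above 1 FPKM in at least 3 of 22 cells (11332 genes). Gene positions came from GENCODE M21 (GRCm38) by identifier. The positions listed in the cell table differ from these, although the notes name GRCm38 for the cells too, so the build behind the cell values is uncertain. Members, lists and motifs were chosen with earlier results of these data known. Named genes were those called in tissue, the extremes of each role group, and, in cells, members whose ages did not overlap by more than 1 or with the highest or lowest mean of a subpopulation. The alternatives were the pseudocount, the filter, TPM scaling, quantile normalization, a replicate block, medians over cells, detection limits and leaving out each sample. Centring on expressed genes was added after seeing the data.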

Additional observations from a re-analysis of the deposited data

Results flagged for a closer look

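In groups of 4 or 5 cells, Dixon's rule marks a cell that stands far from the others of its group. It marked 34 of 132 member and group pairs, where chance gives about 1 in 20, and many of these pairs had all other cells listed at 0 or near it. Neither the number of members above 1 FPKM nor their mean had such a cell. Among members described in the report for that subpopulation, Pole2 was 0.267 FPKM in the Dlx2+/Dcx+ cell 5 of 1 month and listed at 0 in the other 4. Pole2 was also 1.62 FPKM in the Dlx2+/Dcx+ cell 4 of 24 months and listed at 0 in the other 3. Mcm2 was 0.249 FPKM in the Gfap+ cell 4 of 24 months and listed at 0 in the other 4.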

How the results depend on the processing

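The number of members called lower at the p and fold limits was 7 with a pseudocount of 0.1, 5 after TPM scaling and 5 after quantile normalization, against 3, and it was 2 to 4 when single samples were left out. Over all genes tested the number was 349, 311 and 290, against 254, and 181 to 315 when single samples were left out. Mcm10 was under the filter without any single sample of 3 weeks. Members lower at the adjusted limit numbered 7 in the fit reported and 0 to 6 without single samples, while all genes lower at it numbered 297 and 43 to 304. With the replicate number as a replicate block the count of members was 0 (13 of all genes tested), against 3 at the p and fold limits (261 of all genes tested). The numbers do not pair the samples, however, since same-numbered samples had correlations of −0.096, −0.011 and −0.098 between their deviations. The members' median was −0.32 to −0.16 without single samples. The S-phase list had 8 genes past the fold limit with a pseudocount of 0.1 and 8 after TPM scaling, against 4 (3 to 4 without single samples). Its median was −0.60 with that pseudocount and −0.50 to −0.32 without single samples. The G2/M list had 13 to 16 calls without single samples and a median of −1.62 with a pseudocount of 0.1, −1.49 after TPM scaling and −1.29 to −1.22 without single samples. The median of all genes tested was 0.13 after TPM scaling and 0.10 with a pseudocount of 0.1, and members are to be read against it.

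In cells, the mean number of members detected was 38.8, 37.0 and 25.0 at above 0 FPKM in Prom1+, Dlx2+/Dcx+ and Gfap+ cells, and 27.7 and 9.45 at above 5 FPKM in Dlx2+/Dcx+ and Gfap+ cells. Prom1+ cells had 19 members lower by more than 1 with medians over cells and 10 to 22 without single cells, and 8 to 15 higher without single cells. Their mean age difference was −0.91 to 0.27 without single cells (S-phase list −0.98 to −0.37, G2/M list −1.70 to −0.82). In Dlx2+/Dcx+ cells it was 1.14 to 1.62 (S-phase list 0.04 to 0.63, G2/M list −4.83 to −3.43), with 22 to 29 members higher and 4 to 6 lower. In Gfap+ cells it was −0.05 to 0.43 (S-phase list −0.55 to 0.11, G2/M list −0.50 to −0.20), with 11 to 17 higher and 6 to 8 lower, and with 21 higher at a pseudocount of 0.1. Centred on expressed genes, the G2/M list of Gfap+ cells was at −0.59. The share of all expressed genes was not computed for these alternatives in cells, and the cause of these moves was not tested. No called member changed sign in tissue. The cell table holds no counts, so low cell values carry no interval.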
